A study of Mus musculus with 12 samples.

Results

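The 10 genes described here encode heat shock proteins and the cochaperones that work with them: Hspa1a, Hspa1b, Hspa8, Hsph1, Dnajb1, Dnaja1, Bag3, Hsp90aa1, Hspb1 and Hspd1. They were measured by 24 probe sets whose only gene symbol in the array annotation was one of these names, out of 45037 probe sets on the array. Of the 24, 22 passed a filter on low signal and were tested, among 27041 tested probe sets. The other 2 were Hsp90aa1 probe sets that stayed below a signal of 100 in 10 or more of the 12 arrays. The genes were chosen from their low signals in Il1rn-deficient spleens at 4 months. Their values in that comparison are therefore a description, and counts of calls there support nothing.

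Heat shock proteins are chaperones: they bind unfolded or damaged proteins and help them to refold, or hand them over for degradation. When unfolded protein builds up, the transcription factor HSF1 is released from chaperones, forms trimers and binds heat shock elements, which are inverted repeats of the letters GAA, in front of chaperone genes. HSP70 proteins are driven through their cycle of ATP hydrolysis by J-domain cochaperones and are reset by nucleotide exchange factors, and HSP90 receives many of their clients.

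Spleens of BALB/c mice were compared in 4 groups of 3 mice: Il1rn-deficient (ko) at 4 months, wild type (wt) at 4 months, ko at 1 month and wt at 1 month. Each mouse was measured on 1 array. Il1rn encodes the IL-1 receptor antagonist, BALB/c mice without it develop arthritis spontaneously, and the title of the study asks for arthritis genes specific to a phase. No label limits the deficiency to a cell type or describes the allele, and the whole spleen was used, so that fewer cells of a type and less RNA per cell cannot be told apart.

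Il1rn itself, on its probe set with the highest mean, was lower in ko at both ages. At 4 months the log2 difference, ko minus wt, was -2.17 with an SE of 0.35 (adjusted p from limma = 0.00340). At 1 month it was -1.70 with the same SE (adjusted p from limma = 0.0403), and this call was lost in 19 of 26 alternatives, between -2.91 and -1.26. The other 2 Il1rn probe sets were not called at either age, at -1.12 and -0.76 (adjusted p from limma = 0.0739 and 0.543) for 4 months and at -0.57 and -0.95 (adjusted p = 0.382 and 0.411) for 1 month. Some arrays stood apart. By its brightest probe set each array fell into one of 2 sets of 6, a low set that stayed under a signal of 45000 and a high set that passed it. Of the 1-month mice, every ko mouse and wt replicate 3 belonged to the low set. Of the 4-month mice, ko replicate 2 and wt replicate 3 did. The ratio of 3' to 5' signal, a measure of RNA integrity, was 0.649 to 0.816 for Gapdh in 11 arrays and 0.9995 in wt at 4 months replicate 1. In wt at 4 months replicate 2 the summed signal of 8 pancreas genes was 135100, against 240.6 to 678.7 in the other arrays. B cell markers, which define the spleen's main lymphocyte, were high in every array, with a summed signal of 8 genes between 23680 and 62260.

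Hspa1a and Hspa1b, the pair of stress-inducible HSP70 genes, lie close to each other on chromosome 17 and encode nearly the same protein. Their promoters are shown because these 2 genes had the widest range over the groups and because they are almost one sequence. The 250 bases before each annotated start (RefSeq, GRCm38.p6, minus strand) are given 5′ to 3′, with capitals marking the 8-letter form of the heat shock element, GAANNTTC, at position -104 from the start.
Hspa1b, chr17:34959239-34959488: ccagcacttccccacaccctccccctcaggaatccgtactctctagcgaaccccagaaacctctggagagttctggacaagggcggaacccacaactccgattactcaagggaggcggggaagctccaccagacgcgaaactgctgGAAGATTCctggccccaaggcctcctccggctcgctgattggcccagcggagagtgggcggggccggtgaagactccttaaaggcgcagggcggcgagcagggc
Hspa1a, chr17:34972157-34972406: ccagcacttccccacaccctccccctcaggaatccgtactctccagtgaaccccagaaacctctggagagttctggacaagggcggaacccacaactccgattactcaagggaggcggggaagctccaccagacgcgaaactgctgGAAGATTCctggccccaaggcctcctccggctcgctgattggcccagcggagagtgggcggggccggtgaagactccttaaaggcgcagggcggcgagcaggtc
Counted from 1 at the 5′ end of the window, with the base of Hspa1b first, the 3 differences in this stretch were T44C, C47T and G249T. With T276C after the start, the windows of 300 bases differed at 4 positions and were 98.7% identical. Because the genes are near-identical copies, probes of one may also bind the transcript of the other, and their signals cannot be assigned to one gene with certainty.

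The forms of the heat shock element searched were GAANNTTC and TTCNNGAA, each its own reverse complement, and the longer GAANNTTCNNGAA and TTCNNGAANNTTC, on both strands and with overlaps allowed. Windows from 250 bases before to 50 bases after a start were matched for 8 of the 10 genes, all but Hspa8 and Hsp90aa1. Of these 8 genes, 7 held an 8-letter form in at least 1 window, or 8 of 13 windows (61.5%), whereas 15.1% of all 32851 windows held one. A 13-letter form was present in Hsph1 and Hspd1 and in 0.603% of all windows. No form was found in the windows of Dnajb1. A match of letters is a description and not a binding site.

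The stretches around the matches in the other genes are shown so that spacing and number of repeats can be compared, 5′ to 3′ along the gene, with matched letters in capitals. Hspe1, which encodes the cochaperonin of the Hspd1 product, is shown because both genes start from one stretch on opposite strands.
Hspd1, chr1:55088039-55088096, minus strand: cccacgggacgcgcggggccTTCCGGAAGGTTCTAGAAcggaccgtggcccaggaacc
Hspe1, chr1:55088039-55088096, plus strand: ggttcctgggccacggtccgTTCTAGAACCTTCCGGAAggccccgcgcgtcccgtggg
Hsph1, chr5:149636352-149636379, minus strand: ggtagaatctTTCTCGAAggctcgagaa
Hsph1, chr5:149636287-149636316, minus strand: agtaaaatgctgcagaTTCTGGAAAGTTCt
Dnaja1, chr4:40722324-40722371, plus strand: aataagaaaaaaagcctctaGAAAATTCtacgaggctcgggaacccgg
Hspb1, chr5:135887782-135887849, plus strand: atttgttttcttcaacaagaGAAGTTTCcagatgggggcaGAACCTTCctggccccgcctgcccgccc
Bag3, chr7:128523603-128523632, plus strand: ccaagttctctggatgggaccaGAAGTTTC
The Hspd1 stretch held 3 overlapping 8-letter forms, the first at position -144. Hspb1 held 2 separate ones, at positions -117 and -97, and the Bag3 match lay after the start, at position 42. The second Hsph1 stretch also lay after the start and held a 13-letter form, which the first did not.

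**Figure D1:**
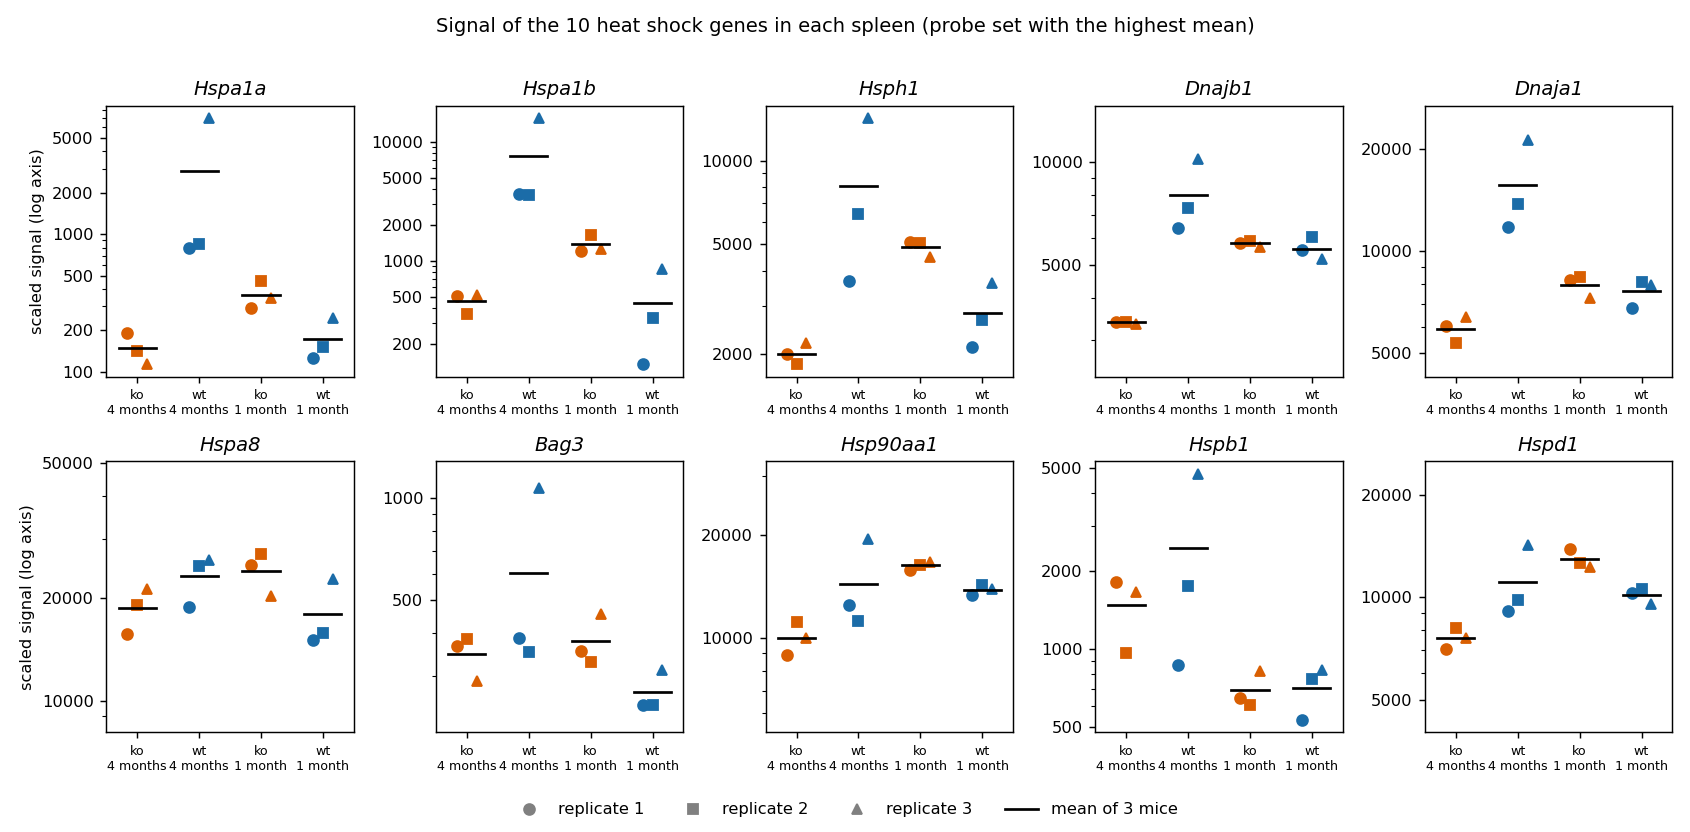
Scaled signal of each of the 10 genes on a log axis, for the probe set with the highest mean, in the 4 groups (ko in orange, wt in blue). Each marker is 1 mouse, its shape is the replicate number, and the bar is the mean of 3 mice. The triangle of wt at 4 months replicate 3 is the highest of the 12 mice for 9 of the 10 genes, with Hspa8 the exception.

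The inducible HSP70 genes had the widest genotype difference at 4 months. Signals are the deposited intensities, scaled per array to a 2% trimmed mean of 500. Hspa1a (probe set 1452388_at) had signals of 192.4, 141.1 and 113.1 in ko spleens at 4 months, against 787.6, 850.9 and 6959 in wt spleens at 4 months. Hspa1b (1427127_x_at) had 500.7, 356.1 and 519.8 in ko spleens, against 3649, 3543 and 15760 in wt spleens of that age. In both genes every ko mouse lay below every wt mouse, and wt replicate 3 stood far above the other two wt mice. The log2 differences, ko minus wt on the log2(signal + 32) scale, were -3.27 (SE 0.55) for Hspa1a and -3.61 (SE 0.52) for Hspa1b, or levels 9.65-fold and 12.2-fold lower in ko. The other Hspa1b probe sets, 1427126_at and 1452318_a_at, gave -3.52 (SE 0.53) and -3.58 (SE 0.48). Without wt replicate 3 the differences were -2.26 for Hspa1a and -2.90 for Hspa1b, or 4.78-fold and 7.48-fold lower.

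At 1 month the order of the genotypes in these genes was the other way round. Hspa1a had 291.6, 455.8 and 342.6 in ko spleens at 1 month, against 125, 151.1 and 244.3 in wt spleens at 1 month. Hspa1b had 1208, 1650 and 1263 in ko spleens, against 134.4, 329.8 and 849.8 in wt spleens. No ko mouse overlapped with a wt mouse in either gene, and wt replicate 3 was again the highest of its group. In order of mean signal, both genes stood highest in wt at 4 months and next in ko at 1 month, and wt at 1 month and ko at 4 months were the lowest groups. The lowest groups overlapped in both genes.

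Hspa8 encodes HSC70, the HSP70 of unstressed cells, and its 4 probe sets did not behave alike. On the one with the highest mean, 1455789_x_at, it had 15740, 19100 and 21290 in ko spleens at 4 months, against 18860, 24980 and 25900 in wt spleens, and the groups overlapped. On 1431182_at, a dim probe set, it had 251, 350.7 and 418.2 in ko spleens, against 1721, 848.2 and 1879 in wt spleens, with no overlap. This difference was -1.97 (SE 0.25), or 3.93-fold lower in ko. The other 3 probe sets gave between -0.36 and -0.22, with SEs of 0.14 to 0.34, and each overlapped. On 1420622_a_at the sign turned to 0.11 without wt replicate 3. The deposited values do not tell which transcript of the gene each probe set reports.

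Hsph1 encodes HSP105, a relative of HSP70 that acts as its nucleotide exchange factor. On 1425993_a_at it had 2005, 1840 and 2192 in ko spleens at 4 months, against 3667, 6428 and 14200 in wt spleens at 4 months. At 1 month it had 5070, 5055 and 4503 in ko spleens, against 2134, 2667 and 3632 in wt spleens. The groups did not overlap at either age, and the genotype with the lower signals was ko at 4 months and wt at 1 month. The 4-month difference was -1.78 (SE 0.32) on this probe set and -1.996 (SE 0.40) on 1423566_a_at, and -1.26 and -1.36 without wt replicate 3.

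Bag3, another nucleotide exchange factor, which couples HSP70 to selective autophagy, is a target of HSF1. It had 367.7, 386.1 and 290.1 in ko spleens at 4 months, against 386.8, 352.7 and 1068 in wt spleens at 4 months. The groups overlapped, and wt replicate 3 alone stood apart. The difference was -0.57 (SE 0.30) with that mouse and -0.09 without it.

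Dnajb1 (HSP40) and Dnaja1 are J-domain cochaperones, which bring clients to HSP70 and stimulate its ATP hydrolysis. On their brightest probe sets both were lower in every ko mouse than in every wt mouse at 4 months. Dnajb1, on 1416755_at, had 3401, 3401 and 3354 in ko spleens at 4 months, against 6400, 7354 and 10230 in wt spleens at 4 months. Dnaja1, on 1416288_at, had 6011, 5366 and 6380 in ko spleens, against 11750, 13780 and 21250 in wt spleens. The ko mice lay close together, and wt replicate 3 was the highest mouse in both genes. The differences were -1.20 (SE 0.15) for Dnajb1 and -1.35 (SE 0.18) for Dnaja1, or 2.30-fold and 2.55-fold lower in ko, and -1.01 and -1.10 without wt replicate 3.

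At 1 month these cochaperones differed little between the genotypes on the same probe sets. Dnajb1 had 5800, 5891 and 5656 in ko spleens at 1 month, against 5534, 6020 and 5186 in wt spleens at 1 month. Dnaja1 had 8217, 8388 and 7297 in ko spleens, against 6801, 8124 and 7953 in wt spleens. The groups overlapped in both. On these probe sets the 4 groups thus fell into a high one (wt at 4 months), 2 middle ones and a low one (ko at 4 months). The second Dnajb1 probe set, 1416756_at, was at -0.61 (SE 0.27) at 4 months and overlapped there. The other Dnaja1 probe sets were at -1.09 (SE 0.20) without overlap and -0.96 (SE 0.37) with it. At 1 month 1416756_at was at 0.34 (SE 0.27). Dnaja1 was then at 0.11 (SE 0.20) on 1460179_at and at 0.625 (SE 0.37) on 1459835_s_at, and the genotypes overlapped on each. On 1459835_s_at the 1-month groups were less alike, with means of 2259 in ko and 1516 in wt.

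Hsp90aa1 encodes the inducible HSP90, which matures kinases and steroid receptors. On 1438902_a_at it had 8923, 11130 and 9994 in ko spleens at 4 months, against 12500, 11190 and 19540 in wt spleens at 4 months. At 1 month it had 15860, 16380 and 16720 in ko spleens, against 13340, 14280 and 13950 in wt spleens. The groups did not overlap at either age, although ko replicate 2 and wt replicate 2 lay close together at 4 months. The 4-month differences of its 3 tested probe sets were -0.49 (SE 0.17), -0.73 (SE 0.16) and -1.01 (SE 0.20). On 1426645_at the genotypes overlapped at 1 month.

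Hspd1 encodes HSP60, the chaperonin of the mitochondrial matrix. It had 7038, 8103 and 7599 in ko spleens at 4 months, against 9123, 9797 and 14280 in wt spleens at 4 months. At 1 month it had 13890, 12600 and 12280 in ko spleens, against 10310, 10540 and 9557 in wt spleens. As with Hsp90aa1 on 1438902_a_at, ko was the lower genotype at 4 months and the higher one at 1 month, with no overlap. The 4-month difference of Hspd1 was -0.52 (SE 0.15). Hspe1, its neighbour on the opposite strand and no member of the 10, was at -0.48 (SE 0.17, limma adjusted p = 0.158) at 4 months.

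Hspb1 encodes HSP27, a small heat shock protein that holds unfolded proteins without using ATP, and its pattern differed from the others. On 1422943_a_at it had 1819, 964.3 and 1657 in ko spleens at 4 months, against 865.2, 1759 and 4763 in wt spleens at 4 months. At 1 month it had 647.8, 604.9 and 824.3 in ko spleens, against 532.4, 764.5 and 826.1 in wt spleens. On this probe set the genotypes overlapped at both ages, and every mouse at 4 months lay above every mouse at 1 month. The 4-month difference was -0.44 (SE 0.41), and 0.20 without wt replicate 3. On 1425964_x_at the ages overlapped in wt, with 1-month replicate 3 at 526.5 and 4-month replicate 1 at 483.4.

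**Figure D2:**
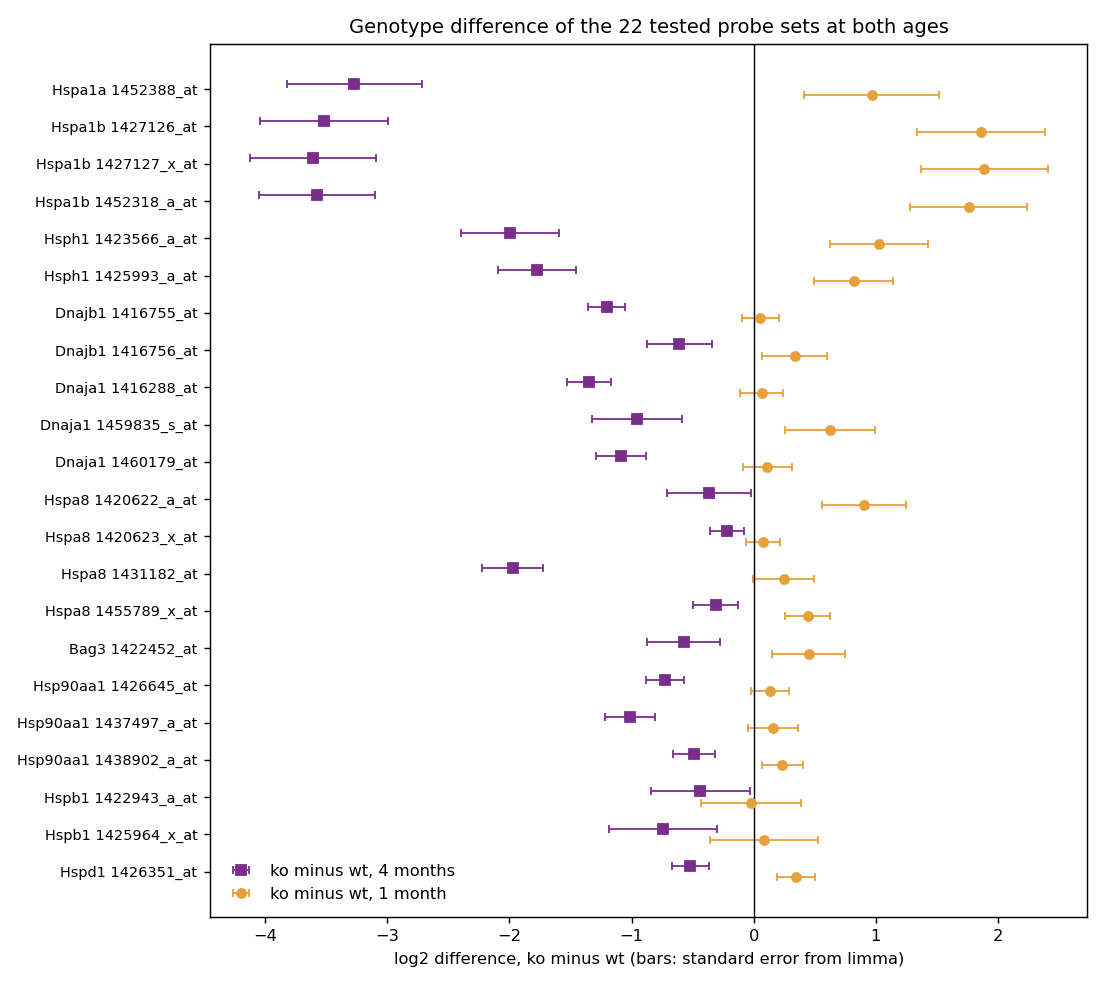
Log2 difference, ko minus wt, of the 22 tested probe sets at 4 months (purple squares) and 1 month (orange circles), with the standard error from limma as bars. All 22 squares lie below 0, between -3.61 and -0.22, and 21 of 22 circles lie above 0, the highest at 1.89.

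Over the 10 genes, 1 probe set each, the median log2 difference at 4 months was -0.89, and the range was -3.61 to -0.31. Over all tested probe sets the median was -0.01. Of the 22 probe sets, 12 were called lower in ko at a limma adjusted p under 0.05 and 14 had no overlap, against 0.518% and 11.4% of all tested probe sets. None was called higher, against 1.78% of all. Since this comparison chose the genes, nothing is read from these counts. The median was -0.67 without wt replicate 3, with 20 of 22 probe sets below 0. Within the low set 1 ko mouse, replicate 2, was set against 1 wt mouse, the high wt replicate 3, and 22 of 22 lay below 0. Within the high set, 2 against 2 mice, 20 of 22 did, the 2 Hspb1 probe sets being above 0.

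The comparison at 1 month sets other mice against each other than the comparison the genes were chosen from, although its fit takes the spread from all 4 groups. None of the 22 probe sets was called by limma, against 0.444% of all tested probe sets, and the lowest adjusted p was 0.109, for Hspa1b. At an unadjusted p under 0.05 there were 8 probe sets, those of Hspa1b, Hsph1 and Hspd1 and 2 of Hspa8, where 15.8% of all tested probe sets were under it. All 10 probe sets without overlap were higher in ko, whereas 7.99% of all tested probe sets were higher without overlap. The median over the 10 genes was 0.40, with 9 of the 10 above 0, and the median of all tested probe sets was -0.04.

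The size of these differences at 1 month was largest for Hspa1b, at 1.89 (SE 0.52, limma adjusted p = 0.114), 1.87 (SE 0.53, adjusted p = 0.120) and 1.76 (SE 0.48, adjusted p = 0.109) on its 3 probe sets, or 3.39-fold to 3.71-fold higher in ko. Hsph1 was at 1.03 (SE 0.40, limma adjusted p = 0.232) and 0.82 (SE 0.32, adjusted p = 0.235), Hspa1a at 0.97 (SE 0.55, adjusted p = 0.403) and Hspd1 at 0.35 (SE 0.15, adjusted p = 0.289). Dnajb1, Dnaja1 and Hspb1 were at 0.05 (SE 0.15), 0.07 (SE 0.18) and -0.02 (SE 0.41) on their brightest probe sets. Hspa8 was at 0.44 (SE 0.18), Bag3 at 0.45 (SE 0.30) and Hsp90aa1 at 0.24 (SE 0.17), likewise on the brightest probe set. On its other probe sets Hspa8 was at 0.91 (SE 0.34, limma adjusted p = 0.222), 0.25 (SE 0.25) and 0.08 (SE 0.14).

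These values and calls depended on single wt mice. Without wt replicate 3 of that age, the wt mouse in the low set, 5 of the 22 probe sets were called higher in ko, namely the 3 of Hspa1b (2.22 to 2.51, limma adjusted p = 0.0116 to 0.0207) and 2 of Hspa8 (1.32 and 0.63, adjusted p = 0.0302 and 0.0466). The number of all probe sets called then rose to 1590, against 120 with every mouse. Without wt replicate 3 of the 4-month group, which enters only through the shared estimate of the spread, the 3 Hspa1b probe sets were called (adjusted p = 0.0169 to 0.0480). The number of all probe sets called was then 125. Without wt replicate 1 of the 1-month group the Hspa1b differences were smaller, at 1.49, 1.30 and 1.21, and no member was called. With the array set as a block the median at 1 month was 0.08, 15 of 22 probe sets lay above 0, and Hspa1b was at 0.92 to 1.11 (adjusted p = 0.466 to 0.493). The array set and the genotype overlapped heavily at this age, and their parts cannot be told apart beyond these values.

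The age differences share mice with the comparison that chose the genes, so their values and calls are a description only. In wt, 4 months against 1 month, the median over the 10 genes was 0.95, all 22 probe sets lay above 0 and 13 were called higher, against 11.8% of all tested probe sets. None was called lower, against 9.67% of all. Hspa1b was at 3.98 (SE 0.52), Hspa1a at 3.11 (SE 0.55), Hspb1 at 1.44 (SE 0.41), Hsph1 at 1.33 (SE 0.32), Dnaja1 at 0.99 (SE 0.18), Bag3 at 0.91 (SE 0.30) and Dnajb1 at 0.49 (SE 0.15). Hspa8 was at 0.39 (SE 0.18), Hspd1 at 0.10 (SE 0.15) and Hsp90aa1 at 0.01 (SE 0.17). Without wt replicate 3 of the 4-month group the median was 0.58, Hspa1b stood at 3.27 and Hspa1a at 2.09.

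In ko, 4 months against 1 month, the median over the 10 genes was -0.74, and 12 probe sets were called lower, against 9.25% of all tested probe sets. The SEs take the spread from all 4 groups, including wt at 4 months, where it was widest for these genes. With only the ko arrays fitted 18 of the 22 were called, 16 of them lower, where 8911 of all 27041 tested probe sets were called. Hspa1b was at -1.52 (SE 0.52), Hsph1 at -1.27 (SE 0.32), Hspa1a at -1.13 (SE 0.55), Dnajb1 and Hspd1 at -0.77 (SE 0.15 each), Hsp90aa1 at -0.71 (SE 0.17) and Dnaja1 at -0.43 (SE 0.18). Hspa8 was at -0.37 (SE 0.18) and Bag3 at -0.11 (SE 0.30). Hspb1 ran the other way, at 1.02 (SE 0.41) and 0.84 (SE 0.44), with each ko mouse of 4 months above each of 1 month. Thus, on the probe set with the highest mean, 9 of the 10 genes lay above 0 with age in wt and below 0 in ko, and Hspb1 lay above 0 in both genotypes. The values of Hsp90aa1 and Hspd1 in wt and of Bag3 in ko were smaller than their SE. Hspa8 on 1420623_x_at was at 0.03 (SE 0.14) in ko. In the interaction, the 4-month minus the 1-month genotype difference, 5 member probe sets were called below 0 and none above it, against 0.0185% and 0.0296% of all tested probe sets.

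**Figure D3:**
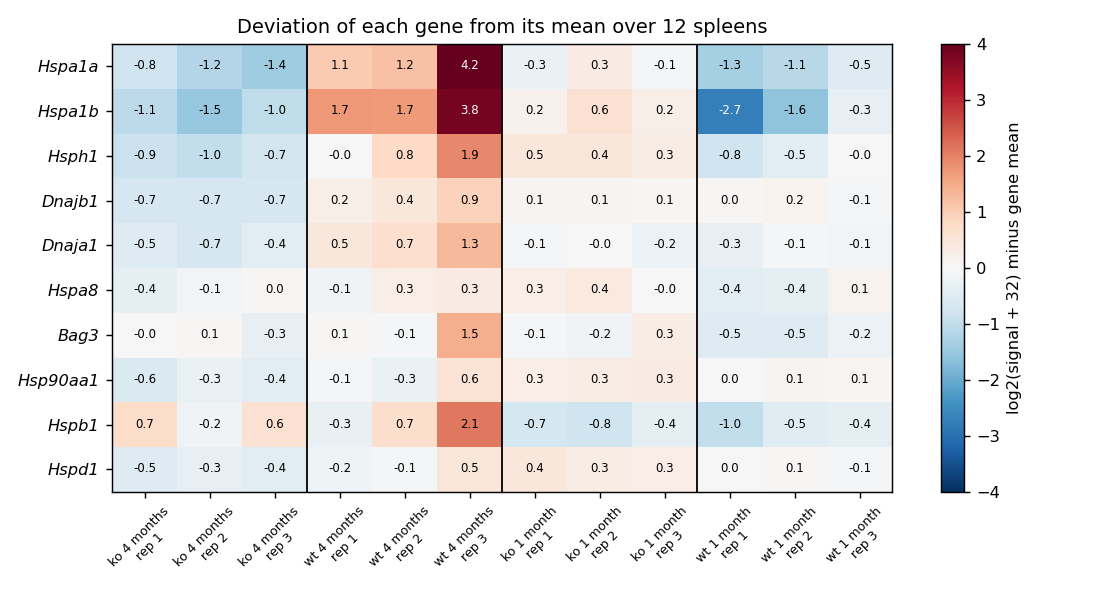
Deviation of each gene's log2(signal + 32), on the probe set with the highest mean, from its own mean over the 12 mice, with 1 column for each mouse and red for above and blue for below the mean. The column of wt at 4 months replicate 3 is the reddest, and those of ko at 4 months are blue for most genes except Hspb1.

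In wt at 4 months replicate 3 all 10 genes were the highest of their group, and their mean deviation from the gene's mean over the 12 mice was 1.71 log2 units. Replicates 1 and 2 of that group stood at 0.29 and 0.54. The ko mice of that age were at -0.47, -0.58 and -0.48, below all 3 wt mice. At 1 month the ko mice were at 0.06, 0.15 and 0.08, and the wt mice at -0.71, -0.43 and -0.15.

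The spread within wt at 4 months was wide for these genes. Their median SD over 3 mice was 0.64 log2 units in this group, where the median SD over all tested probe sets was 0.25. In the other groups the medians were 0.18 for ko at 4 months, 0.16 for ko at 1 month and 0.25 for wt at 1 month, next to 0.18, 0.17 and 0.27 over all tested probe sets. Dnajb1 in ko at 4 months had the smallest SD, 0.01. Pearson's r of a gene with the mean profile of the other members was 0.975 for Hspa1a, 0.945 for Hsph1, 0.931 for Hspa1b and 0.924 for Dnaja1. It was 0.832 for Bag3, 0.793 for Dnajb1, 0.637 for Hspa8, 0.576 for Hspd1, 0.555 for Hsp90aa1 and 0.55 for Hspb1, over 12 mice that share the group structure. The mice whose comparison chose the genes are among these 12, so the r values are a description and support nothing. Probes of Hspa1a and Hspa1b may also bind the transcript of the other gene. For the members, r without wt at 4 months replicate 3 was not computed.

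Values that moved with the high wt mouse were looked for among immediate early genes, which cells transcribe within minutes of a stimulus. Fos was at 1003 in wt at 4 months replicate 3 and at 329.3 to 523.2 in the other 11 mice, and Jun was at 1746 there and at 252.4 to 947.6 in the others. Both were named after their values were seen, and not every gene of the list moved with that mouse. Nr4a1 was also the highest there, at 1441, whereas Egr1 and Klf2 were the lowest of their group there, at 1370 and 4592. The summed signal of all 19 genes of that list was 26310 to 30960 in ko and 29810 to 31090 in wt at 4 months, and 1 of 18 tested genes, Ccn1, was called lower in ko. At 1 month the sums were 20560 to 24990 in ko and 22860 to 27930 in wt. The part of these genes in the heat shock values was not tested.

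Cell markers also differed between the groups. The summed signal of 10 neutrophil granule genes was 52170 to 69490 in ko and 9711 to 14650 in wt at 4 months, and 128100 to 158400 in ko and 44360 to 54650 in wt at 1 month, with all 10 genes called higher in ko at each age. For 7 erythroid genes the sums were 55840 to 65890 in ko and 24800 to 43470 in wt at 4 months, with 4 of 6 tested genes called higher, and 73630 to 84990 and 72420 to 92140 at 1 month. For 8 B cell genes they were 43530 to 55480 in ko and 52360 to 62260 in wt at 4 months, and 23680 to 27410 and 33320 to 35770 at 1 month. No marker of these lists was below 100 in every array, and the part of cell makeup in the heat shock values was not tested.

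The 8 genes most like the 10 were those with the highest Pearson's r, over the 12 mice, with the mean centred profile of the members. They were Ubfd1 (0.963), Ahsa2 (0.948), Chordc1 (0.946), Cnpy4 (0.936), Ccdc117 (0.935), Mrps6 (0.934), Cacybp (0.926) and Zcchc2 (0.909). Ahsa2 had signals of 849.7, 861.4 and 946.6 in ko spleens at 4 months, against 1038, 1810 and 4668 in wt spleens. Ubfd1 had 702.7, 774.6 and 707.8 in ko spleens, against 874.3, 953.1 and 1650 in wt spleens. In both, as in 9 of the 10 members, wt replicate 3 was the highest mouse. Without that mouse r was 0.886 for Ubfd1 and between 0.725 and 0.856 for the other seven.

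A further 127 chaperone and stress genes in 10 lists were described beside the 10, and 111 of them were tested with 1 probe set each. The 10 had been chosen for low ko signals at 4 months and were left out of these lists. The 4-month counts of the remaining genes therefore cannot show how far the pattern of the 10 reached. At 4 months 1 of the 111 was called lower and 1 higher in ko, in all 1.80%, where 2.3% of all tested probe sets were called, and the median was -0.07. The gene that fell was Chordc1, a cochaperone of HSP90, at -1.08 (SE 0.27, limma adjusted p = 0.0413). It had 1982, 2309 and 2263 in ko spleens, against 2886, 4057 and 8603 in wt spleens, and the call was lost in 13 of 28 alternatives, among them the fit without wt replicate 3, at -0.64. The gene that rose was Gadd45a, a growth arrest gene induced by DNA damage, at 0.76 (SE 0.15, limma adjusted p = 0.0114), and its call was lost in 4 of 28 alternatives, namely within either array set and without ko replicate 2 or 3. Among the genes most like the 10, the windows of Ahsa2, Ubfd1, Cacybp, Zcchc2 and Mrps6 held no 8-letter form and that of Cnpy4 held 1. The stretch at the start of Chordc1 is shown, since its window held 5 of the 8-letter forms and no member's window held more than 3. The form at position 33 lies beyond the stretch (RefSeq, GRCm38.p6, plus strand, capitals marking the run of overlapping forms).
Chordc1, chr9:18292261-18292290: cgGAACGTTCGGGAAAATTCCTGAAgcagt

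By list at 4 months, 0 of 8 further HSP70 relatives passed the test, with a median of -0.27 and 6 below 0, and 0 of 30 J-domain cochaperones, with a median of -0.10. Hspa4l, an HSP110 relative, was at -0.61 (SE 0.29, limma adjusted p = 0.315), and Dnajb4 was at -0.27 (SE 0.18, adjusted p = 0.489). Of 13 genes of HSP90 and its cochaperones 1 passed, with a median of -0.21, and Ahsa2, a homologue of the HSP90 ATPase activator, was at -1.20 (SE 0.34, adjusted p = 0.0806). Fkbp5, which slows steroid receptor activation, was at 0.72 (SE 0.20, adjusted p = 0.0754). For 9 nucleotide exchange factors and HSP70 regulators the median was 0.30, with 2 below 0, and Bag2 and Bag1 were at 0.48 (SE 0.21, adjusted p = 0.266) and 0.33 (SE 0.15, adjusted p = 0.312).

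The remaining lists had medians of -0.23 for 14 TRiC and prefoldin subunits, which fold actin and tubulin, -0.33 for 2 heat shock factors, -0.03 for 13 genes of the endoplasmic reticulum, 0.04 for 7 mitochondrial chaperones and proteases, 0.02 for 6 small heat shock proteins and 0.09 for 9 other stress genes. Of these only Gadd45a passed. Hspb6, a small heat shock protein of muscle, was at 0.91 (SE 0.26, limma adjusted p = 0.0831).

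At 1 month limma called 0 of the 111 genes, and 21 (18.9%) had an unadjusted p under 0.05, close to the 15.8% of all tested probe sets. The median of the 111 was 0.13, where that of all tested probe sets was -0.04. Below 0 lay 29.7% of the 111, against 54.4% of all. The overlap of array set and genotype at this age applies here too. The medians were highest for HSP90 and its cochaperones (0.31), nucleotide exchange factors (0.26) and mitochondrial chaperones and proteases (0.21) and lowest for small heat shock proteins (-0.19). Without wt replicate 3 of that age 6 of the 111 were called, 3 of them lower in ko, where 1590 of all 27041 tested probe sets were called. Among the named genes, Mt2, a metallothionein, was at 0.58 (SE 0.21, limma adjusted p = 0.207) and Cct7, a TRiC subunit, at 0.38 (SE 0.14, adjusted p = 0.207).

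**Figure D4:**
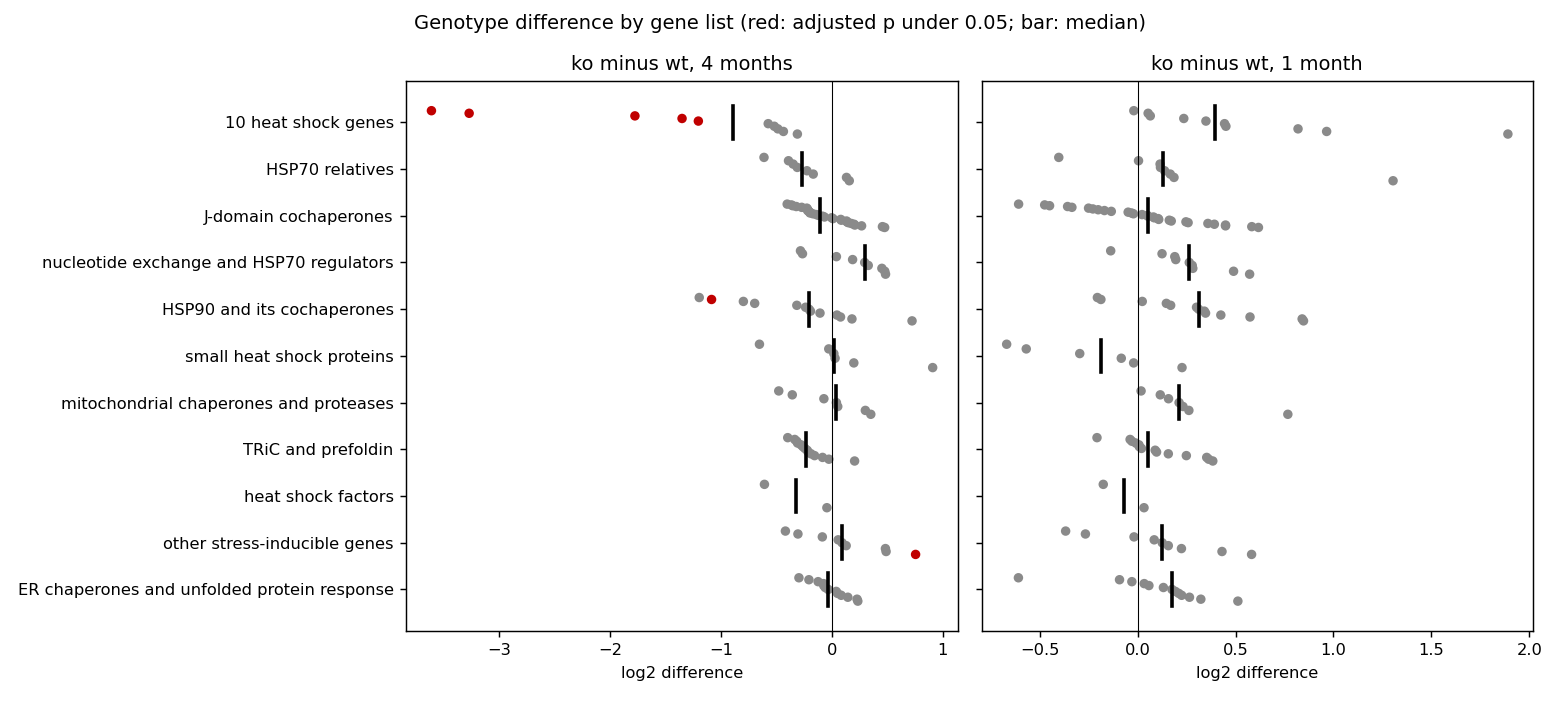
Log2 difference, ko minus wt, at 4 months (left) and 1 month (right), for the 10 genes in the top row and the other chaperone and stress genes by list below. Each point is 1 gene on its probe set with the highest mean, the bar is the median, and red marks a limma adjusted p under 0.05. At 4 months the medians are -0.89 for the 10 genes and between -0.33 and 0.30 for the lists.

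In ko, 4 months against 1 month, 25 of the 111 were called lower and 12 higher, 33.3% in all, where 22.9% of all tested probe sets were called. Of 14 TRiC and prefoldin genes 9 were called lower, with a median of -0.45, among them Pfdn6 (-0.89, SE 0.16, limma adjusted p = 0.00132), Vbp1 (-0.76, SE 0.13, adjusted p = 0.000925), Cct7 (-0.58, SE 0.14, adjusted p = 0.00738) and Cct8 (-0.56, SE 0.12, adjusted p = 0.00375). Hspe1 fell by 0.69 (SE 0.17, limma adjusted p = 0.00679) and Hspa14 by 0.84 (SE 0.14, adjusted p = 0.000594).

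In wt, 4 months against 1 month, 15 of the 111 were called lower and 15 higher, 27.0% in all, where 21.4% of all tested probe sets were called. TRiC and prefoldin had 2 of 14 called lower, Vbp1 (-0.67, SE 0.13, limma adjusted p = 0.00220) and Pfdn6 (-0.51, SE 0.16, adjusted p = 0.0369), and a median of -0.09. Of HSP90 cochaperones 4 of 13 were called higher, Ahsa2 (1.11, SE 0.34, adjusted p = 0.0281), Chordc1 (0.78, SE 0.27, adjusted p = 0.0469), Unc45a (0.68, SE 0.20, adjusted p = 0.0218) and Fkbp5 (0.66, SE 0.20, adjusted p = 0.0289). In ko Fkbp5 also rose with age, by 0.81 (SE 0.20, adjusted p = 0.00890), whereas Ahsa2 was at -0.39 (SE 0.34) and Chordc1 at -0.62 (SE 0.27) there, neither of them called. Of 28 alternatives, the wt calls were lost in 18 for Chordc1, 12 for Pfdn6, 9 for Fkbp5 and 5 each for Ahsa2 and Unc45a, in all 5 genes among them the fit without wt at 4 months replicate 3, which left Chordc1 at 0.34 and Ahsa2 at 0.53.

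Genes that moved with age in both genotypes included Hmox1, the haem oxygenase of red pulp macrophages, which rose by 1.17 (SE 0.17, limma adjusted p = 0.000257) in ko and 1.20 (SE 0.17, adjusted p = 0.000126) in wt. Pdia4, a disulphide isomerase, rose by 0.86 (SE 0.20, adjusted p = 0.00588) in ko and 1.10 (SE 0.20, adjusted p = 0.00118) in wt, and Sil1, the exchange factor of the endoplasmic reticulum, by 0.63 (SE 0.18, adjusted p = 0.0209, lost in 7 of 27 alternatives) in ko and 0.78 (SE 0.18, adjusted p = 0.00671) in wt. Among the genes that fell in both were Bag2 (-0.98 in ko and -0.97 in wt, SE 0.21 each), Dnajb2 (-0.84 and -0.87, SE 0.18 each), Dnajc9 (-0.61 and -0.59, SE 0.12 each), Gadd45a (-0.91 and -1.44, SE 0.15 each) and Mt2 (-0.99 and -0.90, SE 0.21 each). Herpud1, a stress gene of the endoplasmic reticulum, was called in wt at 1.08 (SE 0.21, adjusted p = 0.00200) and stood at 0.55 (SE 0.21, adjusted p = 0.0684) in ko. The interaction called 0 of the 111 genes in limma, where 0.0481% of all tested probe sets were called, and 18 (16.2%) had an unadjusted p under 0.05, where 8.65% of all did.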

How the data were processed

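The authors deposited 1 signal intensity per probe set and array on a linear scale, and MAS5 is named, with no version, in the submitters' processing notes. The deposited values already had a 2% trimmed mean of 500 in each array. Probe sets were named through the platform annotation as 34945 with 1 symbol, 932 with several and 9160 with none, and 64 Affymetrix controls were left out of the tests. The same scaling was applied again, then 32 was added to every signal before taking log2. Probe sets that reached 100 in 3 or more of the 12 arrays entered a fit in limma (version 3.58.1, R 4.3.3) of 4 group means with 8 residual degrees of freedom and an intensity trend. Calls were at a 2-sided Benjamini-Hochberg adjusted p under 0.05 over all tested probe sets. The fit was checked on simulated data. Errors are standard errors (SE) from limma. The labels number the mice without saying how they were bred or housed, and the number of arrays limits the precision.

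The 10 genes, the 10 chaperone lists and the 9 marker lists were chosen with earlier results of these data known. The text names all members, Il1rn and the 8 genes with the highest r. It also names genes drawn from up to 4 called ones of each chaperone list, taken by smallest p over the contrasts. Not every gene so taken is named. Fos, Jun, Ccn1, Nr4a1, Egr1 and Klf2 were named after their values were seen. For other genes the probe set with the highest mean stands for the gene. The alternatives covered normalization, offset, filter, prior variance, array weights, the arrays fitted, blocks for replicate number and array set, each array set alone and leaving out each mouse. Probe, promoter and transcript sequences other than those shown were not used here, and promoter windows are those of RefSeq.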

Additional observations from a re-analysis of the deposited data

Results flagged for a closer look

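The genotype difference at 4 months minus that at 1 month, on the log2 scale, was flagged in 11 of the 22 probe sets. The flag was set by a test, or where the mice did not overlap and ran in opposite directions at the 2 ages. In 5 of them it passed limma's interaction term: the 3 of Hspa1b at -5.39, -5.50 and -5.34, Hspa8 (1431182_at) at -2.22 and Dnajb1 (1416755_at) at -1.26. In the other 6, every ko mouse lay below every wt mouse at 4 months and above every wt mouse at 1 month, but the interaction term did not pass: Hspa1a at -4.24, Hsph1 at -3.02 and -2.59, Hsp90aa1 at -1.17 and -0.72 and Hspd1 at -0.87. Over all tested probe sets 0.0481% passed the interaction term. At 4 months 11.4% of all were lower without overlap, and at 1 month 7.99% were higher without overlap. The share of all that met both was not counted. The interaction includes the 4-month comparison that chose the genes, so these values describe them and are no independent evidence. Leaving out wt at 4 months replicate 3 moved the median of this difference over the 10 genes to -0.87, against -1.14 with every mouse. The number of member probe sets that passed was then 8, of 13 over all tested probe sets. With every mouse it was 5 of 13.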

How the results depend on the processing

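At 4 months 8 to 15 of the 22 member probe sets were called lower in ko under the alternatives, the low set left aside. As reported there were 12, and leaving out 1 mouse there were 9 to 13. The low set compared 1 ko mouse, replicate 2, with 1 wt mouse, the high wt replicate 3. All groups of the low set but ko at 1 month held 1 mouse, so the spread of that group stood for the others there. The median over the 10 genes ran from -1.78 (low set) to -0.67 (without wt at 4 months replicate 3) at this age and from 0.08 (array set block) to 0.59 (median centring) at 1 month.

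Leaving out 1 mouse, the member counts were 0 to 5 at 1 month, 8 to 14 for age in wt, 6 to 16 for age in ko and 3 to 9 for the interaction, and those of the other chaperone genes 0 to 4 and 0 to 6 at 4 months and 1 month, 14 to 33 for age in wt, 20 to 41 for age in ko and 0 for the interaction. Over all probe sets they were 161 to 991 at 4 months, 36 to 1590 at 1 month, 3492 to 6375 for age in wt, 3653 to 6692 for age in ko and 5 to 92 for the interaction. Other settings gave 84 to 889, 32 to 159, 1559 to 6527, 2470 to 11052 and 1 to 30.

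For the interaction of the members, reported at 5, the count was 3 without the filter or with the array set block, 0 without the trend, 2 with robust eBayes, 9 with array weights and 8 within the low set. For age in ko, the members were at 19 with array weights and 6 with the array set block, and the other chaperone genes at 57 with array weights and 19 within the low set. For age in wt the other chaperone genes were at 18 without the trend and within the high set, 12 with only the arrays compared and 11 within the low set. At 4 months they were at 1 with median centring, no filter, no trend, robust eBayes or only the arrays compared, 5 with array weights, 4 with the array set block, 7 within the low set and 0 within the high set, and their interaction count was 1 within the low set.

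Directions turned in probe sets that were not called as reported, with the exception of Dnajb4. At 4 months the Hspb1 probe sets were at 0.48 and 0.073 within the high set, and leaving out 1 mouse Hspb1 ran from -1.005 to 0.20 and Hspa8 (1420622_a_at) from -0.71 to 0.11. At 1 month Hspb1 was at 0.17 with median centring and its other probe set at -0.60 within the low set. With the array set block Dnajb1 was at -0.042, Dnaja1 at -0.075, -0.075 and -0.12, Hsp90aa1 at -0.025 and Hspb1 at -0.47. Within the low set Dnaja1 was at 0.00. Leaving out 1 mouse, the 1-month values ran from -0.20 to 0.10 and -0.26 to 0.43 for Hspb1, -0.015 to 0.13 for Dnaja1 and -0.013 to 0.25 for Hsp90aa1. Dnajb4, called at -0.615 with age in wt (limma adjusted p = 0.0222), was at 0.13 within the low set and lost its call in 6 of the 28 alternatives besides. The cause was not tested.

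Same-numbered mice did not deviate together (r -0.20 to 0.21, median 0.01, against -0.20 to 0.25 for different numbers), so the numbers were not taken as pairs. With the replicate block 12 member probe sets were called at 4 months, 0 at 1 month, 13 for each age comparison and 7 for the interaction. With 3 mice a group and a signal of 100 as the floor, differences within the spread of wt at 4 months could not be resolved.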
